A study of Homo sapiens with 4 samples.

Results

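The RAB GTPases form the largest branch of the RAS superfamily. They were taken as every protein-coding row of the deposited expression table whose symbol is RAB, a number and at most 1 letter from A to D. The rule gave 63 genes of 19951 protein-coding genes and 58735 genes in all. A RAB protein switches between a GDP-bound form, held in the cytosol by a dissociation inhibitor (GDI), and a GTP-bound form, anchored in a membrane by prenyl groups. Exchange factors (GEFs) load GTP, GTPase-activating proteins (GAPs) end the active state, and effectors such as tethers, motor adaptors and sorting factors read it. Each member marks its own set of membranes, so the family as a whole labels the secretory and endocytic routes of a cell.

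Expression was measured by RNA sequencing in 4 libraries of the HFL1 line, derived from human fetal lung and labelled as fibroblasts, 2 of them labelled WT and 2 labelled KO, with no treatment given. The targeted gene is CALU, which encodes calumenin, a calcium binder of the ER and Golgi lumen, and the study asked about senescence and fibrosis signalling. How the knockout was made, whether KO is 1 clone, or whether replicates were separate cultures is not stated by any source used here, so every p-value rests on the spread among 4 libraries, and that spread could be technical. CALU stood at 87.7 and 81.8 FPKM, a level scaled by gene length and library size, in WT and at 6.59 and 5.95 FPKM in KO (log2 change -3.56, SE 0.14, limma adjusted p = 0.00154).

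Recovered reads ran from 16173899 to 17715774 a library. Of 12 fibroblast markers, 8 stayed under 1 FPKM in every library and 2, COL1A2 among them, were at 0, so the labelled cell type lacks several of its defining transcripts. The list summed to 1011 and 1401 FPKM in WT and 561 and 813 FPKM in KO, of which S100A4 alone (not called) gave 933 and 1352 FPKM in WT and 449 and 723 FPKM in KO. The other 3 tested fibroblast markers were higher on the KO mean: COL1A1, which rose 12.1-fold (limma adjusted p = 0.00410), and VIM and THY1, at 1.55 and 1.51 times WT and not called. COL1A1 stood at 0.234 and 0.280 FPKM in WT and 3.04 and 3.16 FPKM in KO. It was tested only because of its KO values, so a difference between groups was built in. The epithelial marker list summed to 712 and 821 FPKM in WT and 1535 and 1765 FPKM in KO, nearly all of it keratin: KRT8 alone gave 349, 425, 731 and 926 FPKM in WT replicates 1 and 2 and KO replicates 1 and 2. Of the 13 epithelial markers 8 were tested, 4 rose, 2 fell and 1 was at 0 everywhere. Endothelial markers summed to 0.937 FPKM or less in every library, the leukocyte list to 20.3 and 18.0 FPKM in WT and 6.05 and 6.73 FPKM in KO with PTPRC at most 0.0239 FPKM, and 6 cell-cycle genes summed to 20.2 and 38.4 FPKM in WT and 280.2 and 242 FPKM in KO. The part these shifts play in the RAB results was not tested.

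Of the 63 RAB genes, 47 reached 1 FPKM in at least 2 libraries and were tested, and 16 did not. In KO 4 of the 47 rose (RAB26, RAB38, RAB3D and RAB2A) and 6 fell (RAB17, RAB37, RAB39B, RAB29, RAB31 and RAB22A), called at a limma adjusted p under 0.05. That is 8.51% higher and 12.8% lower, where the fit called 12.1% of all 14100 tested genes higher and 11.1% lower. The 21.3% of tested RAB genes called either way lay near the 23.3% of all genes, so the family did not stand apart by its number of calls. The 2 WT and 2 KO values did not overlap for 28 of the 47 (59.6%), against 65.7% of all tested genes. The median log2 change was 0.01 (0.03 over all tested genes), and 74.5% of the tested members lay within 0.5 on the log2(FPKM + 1) scale, against 67.1% of all tested genes. RAB17, RAB37 and RAB39B passed the filter only through their WT values, and RAB38 only through its KO values, so a difference between groups was built into their being tested. With the same 47 members tested, the calls of RAB17, RAB37 and RAB39B held without each library in turn, while the other 7 were lost without at least 1 library: all 7 without WT replicate 1 or KO replicate 2, and 6 of them, all but RAB26, without WT replicate 2 or KO replicate 1.

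**Figure D1:**
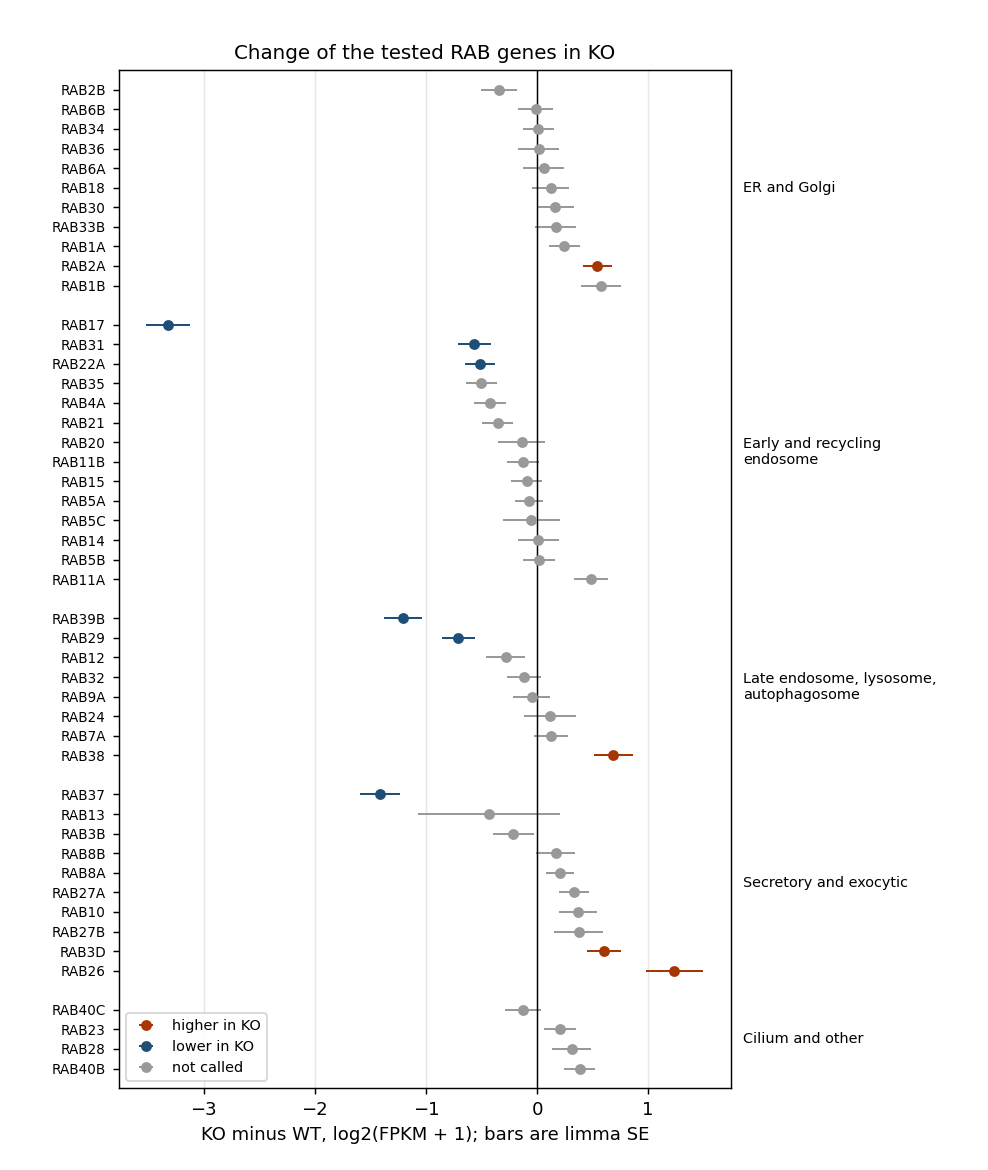
Change of the 47 tested RAB genes, as KO minus WT on the log2(FPKM + 1) scale with limma SE bars. Each gene is placed in 1 membrane route, though some act in several. Colour gives the call. RAB17 lies apart at -3.32, the other called members lie between -1.41 and 1.24, and 35 of 47 lie within 0.5 of zero.

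RAB7A, RAB10 and RAB1A had the highest mean levels of the RAB genes. RAB7A, which drives late endosome and lysosome fusion, stood at 63.2 and 64.9 FPKM in WT and 64.4 and 75.6 FPKM in KO. RAB10, which acts in basolateral and insulin-responsive exocytosis, stood at 61.8 and 54.1 FPKM in WT and 83.2 and 67.8 FPKM in KO, and RAB1A, which acts between endoplasmic reticulum (ER) and Golgi, at 52.3 and 54.0 FPKM in WT and 60.8 and 65.6 FPKM in KO. None of these 3 passed the test (limma adjusted p = 0.604, 0.172 and 0.251), though the KO values of RAB10 and RAB1A both lay above both WT values. The 5 most abundant members (RAB7A, RAB10, RAB1A, RAB1B and RAB11A) held 33.2% and 33.1% of the summed RAB FPKM in WT and 39.9% and 40.1% in KO.

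Summed over all 63 members, the level was 735 and 730 FPKM in WT (mean 732 ± 3.47, SD, n = 2) and 765 and 772 FPKM in KO (768 ± 5.20, SD, n = 2), 1.05 times the WT mean. With 2 values in each group the exact permutation test (two-sided) has a lowest possible p of 0.3333, and that is the p it gave. When libraries were scaled by total recovered reads instead, the ratio was 1.01. The makeup by route shifted more than the total: ER and Golgi members went from 27.6% and 27.8% of the sum in WT to 31.2% and 31.6% in KO, and early and recycling endosome members from 34.3% and 34.8% to 30.1% and 29.7%. Secretory members took 15.0% and 15.7% in WT and 18.8% and 17.5% in KO. In none of these 3 routes did the WT and KO shares overlap, nor did those of the late endosome and lysosome members, at 20.5% and 19.6% in WT and 17.4% and 18.6% in KO. The WT and KO values also did not overlap for 65.7% of all tested genes, and shares of 1 sum are not independent. Early and recycling endosome members summed to 253 FPKM on the WT mean and 230 FPKM on the KO mean. Of these sums, RAB17 alone gave 14.9 and 0.569 FPKM.

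**Figure D2:**
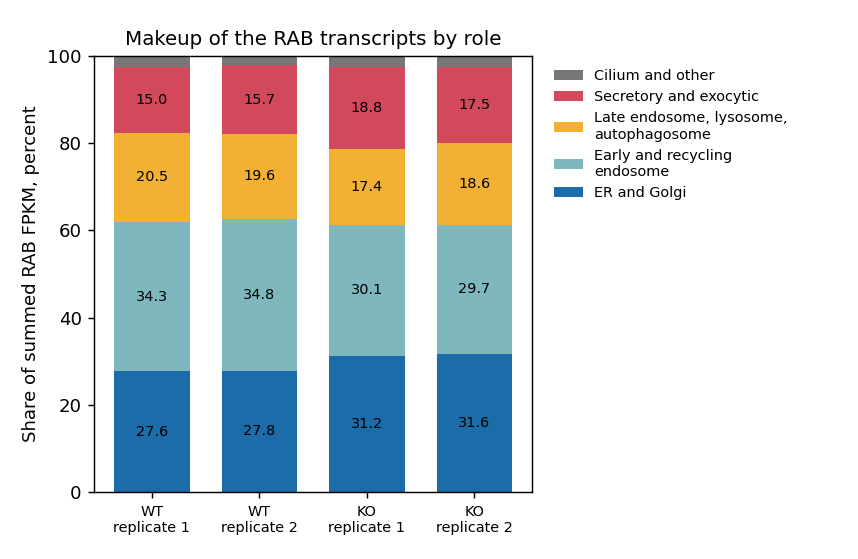
Share of the summed FPKM of all RAB genes held by each route, in percent, for each library; every bar adds to all RAB transcripts measured per length. ER and Golgi members take 27.6% and 27.8% in WT and 31.2% and 31.6% in KO, and early and recycling endosome members 34.3% and 34.8% in WT and 30.1% and 29.7% in KO.

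Among the 16 ER and Golgi members, 11 were tested, 1 rose and 0 fell, with a median log2 change of 0.12. The share called was 9.09%, against 23.3% of all tested genes. For these members limma also gave 0 lower at an unadjusted p under 0.05 and 0 lower with voom. The member that rose was RAB2A, which acts in traffic between ER and Golgi and in lysosome fusion, at 20.3 and 19.7 FPKM in WT and 29.9 and 29.3 FPKM in KO. Both KO libraries lay above both WT libraries, 1.48-fold on the means (log2 0.54, SE 0.13, limma adjusted p = 0.0355), although the call was lost without any 1 library (adjusted p = 0.0592 to 0.242), with no filter on low values (0.0677) and with quantile normalization (0.0519). Its paralog RAB2B stood at 9.32 and 9.29 FPKM in WT and at 8.19 and 6.19 FPKM in KO, below WT in both KO libraries without passing the test (adjusted p = 0.185).

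RAB1B, the close paralog of RAB1A, stood at 31.1 and 36.8 FPKM in WT and 45.3 and 57.3 FPKM in KO. Its groups did not overlap, and it missed the threshold (log2 0.58, SE 0.18, limma adjusted p = 0.0713), which it passed when only protein-coding genes were tested (0.0361) and with limma voom on recovered reads (0.0456). RAB34 was placed in this route, though it acts in cilium formation and lysosome positioning. It had almost the same level in all libraries, 36.6 to 39.8 FPKM. Its share of the summed RAB FPKM was 5.20% and 5.12% in WT and 4.78% and 5.16% in KO. RAB6A, which carries vesicles within and from the Golgi, ranged from 24.3 to 31.6 FPKM. The other tested members of this route, RAB18, RAB30, RAB33B, RAB36 and RAB6B, had log2 changes between -0.01 and 0.17, and none passed. RAB36, RAB33B, RAB6B and RAB30 were low, at 2.63 FPKM or less in every library.

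**Figure D3:**
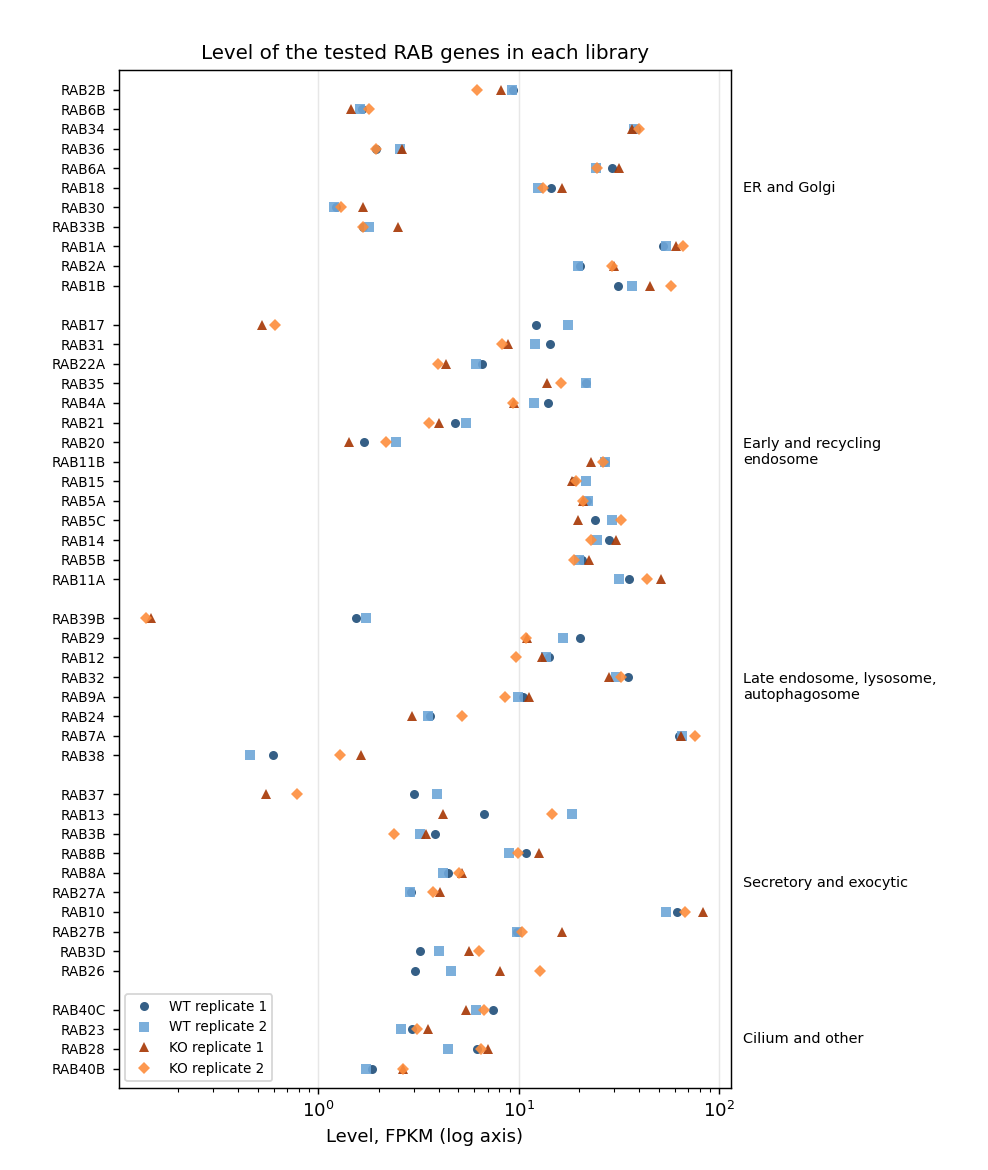
Level in FPKM (log axis) of the 47 tested RAB genes in each of the 4 libraries, in the same order and routes as the plot of log2 changes. RAB17, RAB37 and RAB39B show both KO libraries far to the left of both WT libraries, and RAB13 shows both replicates 2 to the right of both replicates 1.

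Of 16 early and recycling endosome members, 14 were tested, 3 fell and 0 rose. The share called was 21.4%, against 23.3% of all tested genes, and these 14 members had a median log2 change of -0.13. At an unadjusted limma p under 0.05, 1 was higher (RAB11A), and voom called 0 higher. RAB17, known from polarized epithelial cells where it acts in apical recycling and transcytosis, stood at 12.1 and 17.6 FPKM in WT and at 0.525 and 0.612 FPKM in KO. Both KO libraries lay far below both WT libraries, and the KO mean of 0.569 ± 0.0617 FPKM was 26.1-fold lower than the WT mean of 14.9 ± 3.85 FPKM (each ± SD, n = 2). The log2 change was -3.32 (SE 0.20, limma adjusted p = 0.00246), and the call held under all 13 alternatives (adjusted p up to 0.0472). These values rest on 1060 and 1379 reads in WT and 44 and 48 reads in KO.

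RAB17 lies on chromosome 2 from 237574322 to 237601614 on the minus strand of GRCh38. Its exons share 74 bases with AC104667.2 on the other strand, which had at most 8 reads in any library. The 8 tested epithelial markers did not move one way beside it. KRT15 fell from 2.21 and 1.93 FPKM in WT to 0.0727 and 0.0950 FPKM in KO (limma adjusted p = 0.00574), and CLDN4 from 4.57 and 5.27 FPKM to 0.947 and 0.973 FPKM (adjusted p = 0.00414). Both passed the filter only through their WT values, so a difference between groups was built into their being tested. CDH1 rose from 6.79 and 8.55 FPKM to 39.9 and 36.9 FPKM, as did KRT8, KRT18 and KRT19, while EPCAM stood at 1.76, 1.57, 2.04 and 2.04 FPKM and, like CLDN3, was not called. The part of any epithelial shift in the RAB17 values was not tested. RAB25, the other member best known from epithelia, had only 6 reads over the 4 libraries and was not tested. In bulk RNA, fewer cells with a transcript and less transcript per cell cannot be told apart.

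The 2 further members that fell in this route are relatives of each other. RAB31, which sorts cargo between the trans-Golgi network and endosomes, stood at 14.3 and 12.1 FPKM in WT and 8.87 and 8.28 FPKM in KO (1.54-fold lower, log2 -0.56, SE 0.14, limma adjusted p = 0.0437). RAB22A, which acts in recycling from early endosomes, stood at 6.58 and 6.11 FPKM in WT and 4.35 and 3.94 FPKM in KO (1.53-fold lower, log2 -0.51, SE 0.13, adjusted p = 0.0442). Both genes had KO values below both WT values and lost their calls without any 1 library (adjusted p = 0.0738 to 0.311 for RAB31, 0.0689 to 0.288 for RAB22A) and with no filter on low values (0.105 and 0.107). The third gene of this subgroup, RAB21, stood at 4.80 and 5.44 FPKM in WT and 4.01 and 3.57 FPKM in KO and did not pass (adjusted p = 0.126).

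RAB35 and RAB4A, both of fast recycling to the plasma membrane, also had KO values below both WT values. RAB35 stood at 21.7 and 21.6 FPKM in WT and 13.9 and 16.2 FPKM in KO (log2 -0.50, SE 0.14, limma adjusted p = 0.0553). RAB4A stood at 14.1 and 11.9 FPKM in WT and 9.52 and 9.31 FPKM in KO (adjusted p = 0.0837). Neither passed the threshold, and the WT and KO values did not overlap for 65.7% of all tested genes. RAB11A, of the slow recycling compartment, lay the other way, at 35.5 and 31.6 FPKM in WT and 51.4 and 43.6 FPKM in KO (log2 0.49, SE 0.16, adjusted p = 0.0775), and passed only when protein-coding genes alone were tested (0.0497) or with the replicate number as a block. The 3 RAB5 genes, which organize early endosomes, lay close to their WT level: log2 changes were -0.07 for RAB5A, 0.02 for RAB5B and -0.05 for RAB5C. RAB5C ranged from 19.7 to 32.4 FPKM with overlapping groups. RAB14, RAB15, RAB20 and RAB11B had log2 changes of -0.14 to 0.01 and did not pass.

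Of 11 late endosome, lysosome and autophagosome members, 8 were tested, 1 rose and 2 fell, with a median log2 change of -0.08. The share called was 37.5%, against 23.3% of all tested genes. RAB39B, an X-linked gene known for its role in neurons, stood at 1.55 and 1.72 FPKM in WT and 0.147 and 0.139 FPKM in KO. The KO libraries held 9 and 8 of its reads and the WT libraries 99 each, and the mean was 11.4-fold lower (log2 -1.20, SE 0.17, limma adjusted p = 0.00986). Its log2 change was -2.83 with a pseudocount of 0.1 in place of 1 and -3.49 with limma voom, and with no filter on low values it missed the threshold (adjusted p = 0.0542). Its relative RAB39A was below the filter, at 0.689 and 0.7001 FPKM in WT and 0.2496 and 0.2001 FPKM in KO.

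RAB29, which works with the kinase LRRK2 at the Golgi and at stressed lysosomes, stood at 20.3 and 16.7 FPKM in WT and 10.9 and 10.8 FPKM in KO. The groups did not overlap and the mean was 1.70-fold lower (log2 -0.71, SE 0.15, limma adjusted p = 0.0258); the call was lost without any 1 library (adjusted p = 0.0562 to 0.208) and with no filter on low values (0.0792). RAB38, which serves lysosome-related organelles such as the melanosome, rose from 0.598 and 0.458 FPKM in WT to 1.64 and 1.29 FPKM in KO (2.77-fold, log2 0.69, SE 0.18, adjusted p = 0.0438). It rests on 100 reads in all, passed the filter through its KO level, and lost its call without any 1 library (adjusted p = 0.0697 to 0.171), with a pseudocount of 0.1 (0.0547, where its log2 change was 1.32), with limma voom (0.0527) and with no filter on low values (0.129). Its paralog RAB32 stood at 28.3 to 35.1 FPKM with overlapping groups. RAB7A, RAB9A, RAB12 and RAB24 did not pass, with log2 changes of -0.28 to 0.12; RAB24 shares 44.8% of its exon length with MXD3 on the same strand, whose reads went from 43 and 40 in WT to 308 and 508 in KO.

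Upstream sequence is shown for the called members RAB22A and RAB29, which fell, and RAB3D, which rose, so that their promoters can be set side by side. RAB17 and RAB31, which also fell, had windows too. They are not printed because 250 and 136 of the 250 bases lie in exons of the gene itself. The sequences come from the RefSeq promoter table (GRCh38.p14), run 5′ to 3′ on the gene's strand from 250 bases before the annotated start, and stop before the first exon base of the gene in GENCODE release 29. Capitals mark the GC box, GGGCGG on either strand. The windows are chr20:58309465-58309695 (plus strand) for RAB22A, chr1:205775483-205775732 (minus strand) for RAB29 and chr19:11339669-11339907 (minus strand) for RAB3D. The RAB3D window lies inside the gene's GENCODE span but outside its exons, and 96 bases of the RAB29 window lie in an exon of AC119673.1.
RAB22A: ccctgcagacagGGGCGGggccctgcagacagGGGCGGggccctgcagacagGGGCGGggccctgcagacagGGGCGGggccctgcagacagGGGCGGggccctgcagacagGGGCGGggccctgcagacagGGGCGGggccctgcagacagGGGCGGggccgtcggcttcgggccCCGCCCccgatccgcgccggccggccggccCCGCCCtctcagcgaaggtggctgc
RAB29: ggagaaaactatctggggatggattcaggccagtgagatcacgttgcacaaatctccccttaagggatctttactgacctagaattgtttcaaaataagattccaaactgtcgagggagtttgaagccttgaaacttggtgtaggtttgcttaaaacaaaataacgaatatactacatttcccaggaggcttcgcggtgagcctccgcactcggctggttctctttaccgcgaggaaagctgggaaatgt
RAB3D: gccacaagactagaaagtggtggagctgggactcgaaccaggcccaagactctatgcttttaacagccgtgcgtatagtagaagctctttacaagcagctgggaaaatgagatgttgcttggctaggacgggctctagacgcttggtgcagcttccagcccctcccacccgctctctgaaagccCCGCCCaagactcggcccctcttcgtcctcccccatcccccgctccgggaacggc

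The RAB22A window has 10 GC boxes and 81.0% GC, with 8 copies on the plus strand spaced 20 bases apart in a repeat. The RAB29 window has 0 GC boxes and 45.2% GC, and the RAB3D window has 1 and 59.0% GC. Over the full 250 bases, exons included, RAB17 has 0 GC boxes and 52.8% GC, and RAB31 has 3 and 82% GC. The table matched 50 of the 63 members, with 71 windows. In the 250 bases before the start, a GC box lay in 75.5% of the 53 windows of tested members, in 64.5% of the 13435 windows of all tested protein-coding genes and in 42.6% of all 35116 windows. The AP-1 motif TGACTCA lay in 9.43%, 3.01% and 4.20% of these, and the E-box CACGTG in 9.43%, 8.39% and 6.34%, each searched on both strands. These matches are descriptions of the letters, and the AP-1 and E-box shares of the tested members rest on 5 windows each. The other motifs searched were the CCAAT box CCAAT, the TATA box TATAAA and the CRE TGACGTCA, found in 30.2%, 3.77% and 0% of the tested members' windows and in 32.6%, 5.52% and 2.46% of those of all tested protein-coding genes.

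Of 12 secretory and exocytic members, 10 were tested, 2 rose and 1 fell, with a median log2 change of 0.27. The share called was 30%, against 23.3% of all tested genes. RAB26 and RAB37 are close paralogs, both known from regulated secretory granules, and they moved in opposite directions. RAB26 stood at 3.04 and 4.59 FPKM in WT and 8.10 and 12.8 FPKM in KO, 2.74-fold higher on the means (log2 1.24, SE 0.26, limma adjusted p = 0.0258). Both KO values lay above both WT values, and in each group replicate 2 was the higher library. The call was lost without WT replicate 1 (adjusted p = 0.112), without KO replicate 2 (0.0579) and with no filter on low values (0.113).

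RAB37 stood at 3.01 and 3.90 FPKM in WT and 0.551 and 0.782 FPKM in KO, with no overlap. The KO mean of 0.667 ± 0.163 FPKM was 5.18-fold lower than the WT mean of 3.45 ± 0.625 FPKM, each with its SD at n = 2 (log2 -1.41, SE 0.18, limma adjusted p = 0.00727), on 279 and 324 reads in WT and 49 and 65 in KO. The call was lost only with no filter on low values (adjusted p = 0.0584), and its log2 change was -2.22 at a pseudocount of 0.1 and -2.43 with limma voom. RAB26 lies on chromosome 16 from 2140803 to 2154165 and RAB37 on chromosome 17 from 74670578 to 74747335, both on the plus strand of GRCh38. RAB26 was 1.104 times RAB37 in WT and 15.6 times RAB37 in KO, by mean FPKM.

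RAB3D, which acts in exocytosis of secretory cells outside the nervous system, rose from 3.24 and 3.99 FPKM in WT to 5.64 and 6.37 FPKM in KO, with no overlap (1.66-fold, log2 0.60, SE 0.15, limma adjusted p = 0.0407). The call was lost without any 1 library (adjusted p = 0.0672 to 0.277), with no filter (0.117) and with quantile normalization (0.0503). RAB3B, of the same subgroup, stood at 3.83 and 3.21 FPKM in WT and 3.44 and 2.39 FPKM in KO and did not pass. RAB27A and RAB27B, which dock secretory vesicles and exosome-bearing endosomes, had KO values above both WT values, at 2.89 and 2.88 against 4.06 and 3.72 FPKM and at 9.86 and 9.80 against 16.4 and 10.3 FPKM. Neither passed (adjusted p = 0.129 and 0.272); RAB27B passed without KO replicate 2, at 0.0394. RAB8A and RAB8B, of traffic to the plasma membrane and cilium, had log2 changes of 0.20 and 0.17 and did not pass.

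RAB13, which acts at tight junctions, differed more between replicate numbers than between groups. It stood at 6.71 FPKM in WT replicate 1 and 18.4 FPKM in WT replicate 2, and at 4.21 FPKM in KO replicate 1 and 14.7 FPKM in KO replicate 2. The log2 change was -0.43 with an SE of 0.64, the largest SE drawn in the plot of log2 changes (limma adjusted p = 0.663), and its sign turned without WT replicate 2 (0.23) and without KO replicate 1 (0.36). Within each replicate number KO lay below WT, and with the number as a block, whose meaning the labels do not give, RAB13 was called lower (log2 -0.43, SE 0.12, adjusted p = 0.0347).

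Of the 7 cilium and other members, 4 were tested and limma called 0, as did voom. Of all tested genes limma called 23.3%. Among the 4 members, 1 (RAB40B, higher) had an unadjusted limma p under 0.05. RAB23, a regulator of Hedgehog signalling, stood at 2.93 and 2.58 FPKM in WT and 3.55 and 3.11 FPKM in KO, and RAB28, of the photoreceptor cilium, at 6.19 and 4.42 FPKM in WT and 6.99 and 6.51 FPKM in KO. RAB40B and RAB40C, which are subunits of cullin ubiquitin ligases, had log2 changes of 0.38 and -0.13 and did not pass. RAB23 shares 57.7% of its exon length with BAG2 on the other strand, so its reads are uncertain where strand was not used. Exons were shared with another annotated gene for 24 of the 47 tested members and for 3 of the 10 called, RAB17, RAB37 and RAB3D.

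The 16 members below the filter were at 1.04 FPKM or less in every library. RAB43, RAB3A and RAB4B came nearest to 1 FPKM, with highest values of 1.04, 1.04 and 0.947 FPKM. On the same strand RAB43 shares 79.3% of its exon length with ISY1-RAB43. RAB4B shares 25.7% with MIA-RAB4B and 27.4% with RAB4B-EGLN2. These partners had 0 or 1 reads in each library. How reads in shared exons were counted is not stated, so the levels of RAB43 and RAB4B may be understated. RAB7B, a late endosome and Golgi member, stood at 0.565 and 0.430 FPKM in WT (38 and 26 reads) and at 0 and 4 reads in KO, and RAB9B at 21 and 13 reads in WT and 0 and 7 in KO. RAB44 had 30 and 28 reads in WT and 9 and 11 in KO. RAB3A, the synaptic vesicle member, lay the other way, at 0.241 and 0.302 FPKM in WT and 0.565 and 1.04 FPKM in KO. RAB41, RAB42, RAB40A and RAB33A had 23 to 77 reads in total, and RAB25, RAB3C, RAB6C, RAB6D and RAB19 had 3 to 6. A floor of 3 reads corresponded to at most 0.184 FPKM for these genes, and it covers counting error only. Of 17 annotated RAB pseudogenes, 12 had 0 reads.

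**Figure D4:**
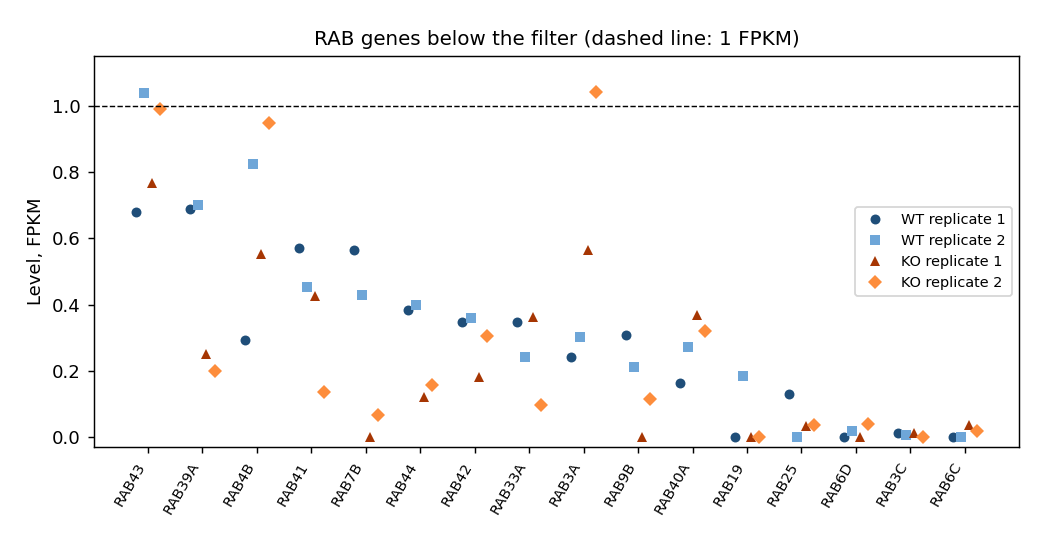
Level in FPKM (linear axis) of the 16 RAB genes below the filter in each library, ordered by WT mean; the dashed line is the 1 FPKM minimum. RAB39A, RAB7B, RAB44, RAB9B, RAB41 and RAB42 have both WT values above both KO values. RAB3A, RAB40A and RAB6C have both KO values above both WT values, though RAB6C has only 0 and 0 reads in WT and 2 and 1 in KO, under the floor of 3 reads. Overlap was not counted over other genes below the filter.

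Paralogs of a subgroup did not always move together. Among 23 pairs of tested members in 14 subgroups, the largest shift was between RAB26 and RAB37: the difference of their log2(FPKM + 1) values was 0.01 and 0.19 in WT and 2.55 and 2.95 in KO, a shift of 2.65 (SE 0.22). The shift was 0.88 (SE 0.16) for RAB2A over RAB2B and 0.61 (SE 0.23) for RAB11A over RAB11B. It was -0.82 (SE 0.35) for RAB3B over RAB3D and -0.80 (SE 0.19) for RAB32 over RAB38. The WT and KO differences did not overlap in these pairs, which are among the 10 of 23 that did not overlap. The exact permutation p was 0.3333 for each, the lowest possible. Several of the 23 pairs share a gene, and pairs of other genes were not counted. The 10 of 23 therefore has no background share and is a description only. For RAB22A over RAB31 the shift was 0.05 (SE 0.07) and for RAB27A over RAB27B -0.04 (SE 0.26), each smaller than its SE. RAB7A and RAB29 were also counted as a pair, and the subgroups were not checked against protein sequence.

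Genes that act on or resemble RAB proteins were taken from 6 lists. Of 178 such genes 160 were tested, 7 rose and 11 fell, which is 11.2% called beside 23.3% of all tested genes; the difference was not tested. For the 8 genes of prenylation and recycling to the cytosol, 1 rose: CHML, an escort protein that presents new RABs for prenylation, at 1.01 and 0.924 FPKM in WT and 3.81 and 3.29 FPKM in KO (3.67-fold, log2 1.21, SE 0.15, limma adjusted p = 0.00695; 0.0564 with no filter on low values). GDI2, a dissociation inhibitor, stood at 53.7 and 54.1 FPKM in WT and 79.3 and 71.4 FPKM in KO and missed the threshold (adjusted p = 0.0662; 0.0472 with protein-coding genes alone).

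Of 50 tested exchange factor genes, 1 rose and 4 fell, 10% called beside 23.3% of all tested genes. SMCR8, a partner of C9orf72, stood at 15.7 and 17.2 FPKM in WT and 6.98 and 6.49 FPKM in KO (2.44-fold lower, limma adjusted p = 0.00574). RIN3, a RAB5-family exchange factor, stood at 14.9 and 12.3 FPKM in WT and 7.03 and 6.02 FPKM in KO (2.08-fold lower), and was not called without WT replicate 1 (adjusted p = 0.104). DENND2D was 6.23-fold lower from 1.42 ± 0.256 FPKM (SD, n = 2), not called without WT replicate 2 or KO replicate 2 (0.0755 and 0.0546), with a log2 change of -0.98 that was -2.22 at a pseudocount of 0.1 and -2.67 with limma voom. SBF2 rose 2.01-fold to 4.02 ± 0.649 FPKM, and was not called without WT replicate 1, WT replicate 2 or KO replicate 1 (adjusted p = 0.0856 to 0.1603). DENND2D passed the filter only through its WT values and CHML only with its KO values. RIN3, DENND2D and SBF2 also missed the threshold with no filter on low values (adjusted p = 0.0651, 0.0746 and 0.107).

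Of 34 tested GAP genes, 1 rose and 1 fell, 5.88% called beside 23.3% of all tested genes. TBC1D4, the GAP of RAB10 in insulin-responsive glucose transport, stood at 17.7 and 15.3 FPKM in WT and 5.37 and 4.19 FPKM in KO. It was 3.45-fold lower with no overlap (log2 -1.60, SE 0.16, limma adjusted p = 0.00480) and stayed called under all 13 alternatives. TBC1D8B stood at 1.98 and 1.93 FPKM in WT and 5.70 and 4.22 FPKM in KO (2.53-fold higher), not called without either WT replicate (adjusted p = 0.0713 and 0.0696) or with no filter (0.0767).

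Of 57 tested effector genes, 4 rose and 5 fell, 15.8% called beside 23.3% of all tested genes. MICALL1, an effector of RAB8 and RAB35 on tubular recycling endosomes, stood at 35.4 and 29.002 FPKM in WT and 8.33 and 6.34 FPKM in KO, 4.39-fold lower (log2 -2.00, SE 0.18, limma adjusted p = 0.00422). BICDL1, a dynein adaptor that binds RAB6, stood at 11.5 and 11.9 FPKM in WT and 3.70 and 4.38 FPKM in KO (2.89-fold lower, log2 -1.33), and both genes stayed called under all 13 alternatives. GCC1, a golgin, was 2.06-fold lower, at 7.78 ± 0.684 FPKM in KO against 16.0 ± 0.990 FPKM in WT (± SD, n = 2), not called without either WT replicate (adjusted p = 0.0586 and 0.0740) or with no filter (0.0520). EXOC6, the exocyst subunit that binds RAB proteins on secretory vesicles, stood at 3.49 and 2.96 FPKM in WT and 8.10 and 5.84 FPKM in KO, and was not called without either WT replicate, without KO replicate 1 or with no filter (adjusted p = 0.0581 to 0.122).

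Of the 4 RAB kinases and phosphatases, 1 fell and 0 rose, 25% called beside 23.3% of all tested genes. At an unadjusted limma p under 0.05 and with voom, 0 of these 4 were higher as well. The gene that fell was LRRK1, which phosphorylates RAB7A. It stood at 5.71 and 5.58 FPKM in WT and 3.69 and 3.59 FPKM in KO (1.55-fold lower, limma adjusted p = 0.0382). That call was lost without any 1 library (adjusted p = 0.0772 to 0.252) and with no filter (0.0946). LRRK2, the kinase that works with RAB29, stood at 4.72 and 4.84 FPKM in WT and 6.16 and 4.20 FPKM in KO, and PPM1H, a phosphatase of RAB proteins, at 9.35 and 9.50 FPKM in WT and 9.77 and 7.95 FPKM in KO; neither passed. Of 7 tested RAB-like genes limma called 0, voom called 0 and 0 had an unadjusted p under 0.05; RABL6 and IFT22, the most abundant, had log2 changes of 0.04 and -0.08, the first of which turned sign with scaling by total recovered reads (-0.0037) and with limma voom (-0.0052).

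**Figure D5:**
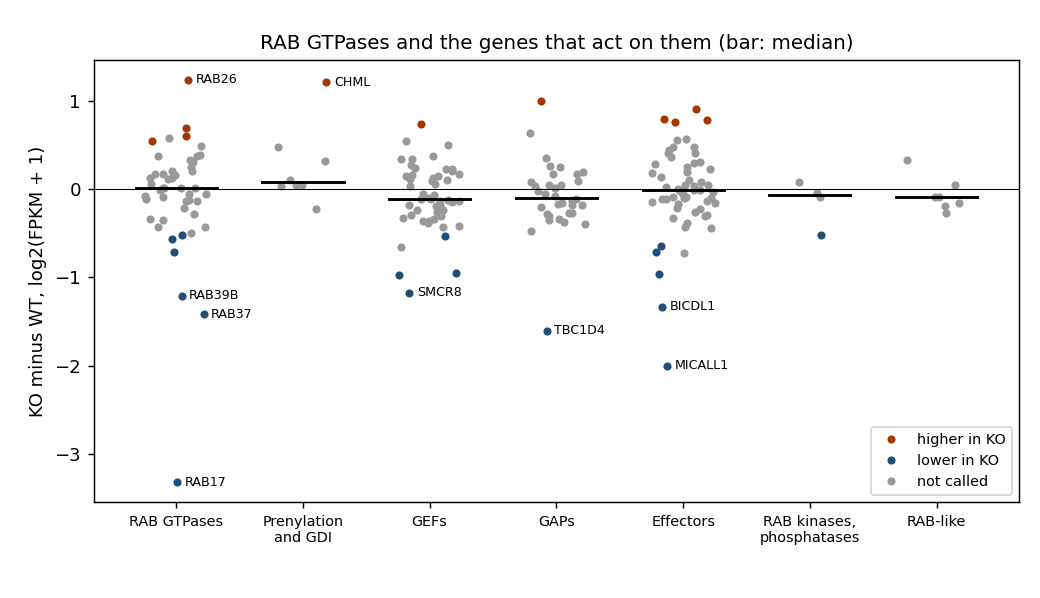
Log2 change (KO minus WT, log2(FPKM + 1)) of each tested RAB GTPase and of each tested gene in 6 lists of genes that act on or resemble them; bars are list medians and colour gives the call. RAB17 at -3.32 and MICALL1 at -2.00 lie lowest, RAB26 and CHML at 1.24 and 1.21 lie highest, and every list median lies between -0.11 and 0.08.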

How the data were processed

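Expression in 4 HFL1 libraries was read from the deposited table of FPKM. Paired-end reads were aligned with HISAT2 2.0.5, per the labels' protocols; the submitters' processing notes name hg38 and mm10, and no source used here names the counting tool, its strand setting or the FPKM scaling. Positions and lengths of all 63 members equalled GENCODE release 29 (GRCh38). FPKM times gene length was a whole multiple of 1 step for 100% of values (tolerance 0.01), which gave the reads.

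Genes with at least 1 FPKM in at least 2 libraries were fitted as log2(FPKM + 1) with limma 3.58.1 in R 4.3.3 (intensity-dependent prior), KO against WT, with Benjamini-Hochberg adjustment over all 14100 genes and calls at 0.05. This scale understates changes of low genes; folds are ratios of mean FPKM. The fit was tested on simulated data. Paralog differences were described, without an adjusted p over members alone. The SE of a paralog shift comes from the spread of the 4 libraries' differences.

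Members and lists were chosen with earlier results of these data known. Named were all called members, the 3 most abundant uncalled ones of each route, and up to 4 called genes (or the most abundant) of each list; RAB13, other members and markers such as KRT15, CLDN4 and S100A4 were named after their values were seen. Alternatives were other pseudocounts, filters and scalings, limma voom, a replicate block and leaving out each library. A result that needs an item withheld for evaluation is not reported here.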

Additional observations from a re-analysis of the deposited data

How the results depend on the processing

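Of the 4 RAB genes higher and 6 lower in KO, limma counts were 0 and 1 with no filter on low values (7 higher at an unadjusted p under 0.05), 2 higher with quantile normalization, 0 to 1 higher and 3 to 4 lower when 1 library was left out (the 0 is without WT replicate 1, where 2 were higher at an unadjusted p under 0.05). All genes called numbered 183 higher and 193 lower with no filter, 1041 lower with at least 5 FPKM required, and 505 to 1321 higher and 537 to 1260 lower with 1 library left out. Of genes acting on RABs, 0 were higher (14 at an unadjusted p under 0.05) and 4 lower with no filter, 3 higher with at least 5 FPKM required, 20 lower with limma voom, and 1 to 7 higher and 5 to 9 lower with 1 library left out. Some alternatives by construction tested other genes or used fewer samples; beyond that the cause was not tested. CALU kept its direction and call throughout. The summed RAB ratio moved from 1.05 to 1.01 with scaling by total recovered reads. The library size implied by the deposited FPKM was 1.03 and 1.01 times the recovered reads in WT and 0.990 and 0.986 times in KO. The 2 scalings therefore differ between the groups by construction.

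The labels give the groups the same replicate numbers but not a shared origin. Replicate 2 minus replicate 1 correlated at 0.411 between WT and KO over tested genes. With a replicate block 7 RAB genes were higher and 9 lower, and 2968 genes were higher and 2577 lower in all. Of genes acting on RABs, 17 were then higher and 20 lower. RAB1B, RAB11A, RAB10, RAB13 and GDI2 were among the genes that passed with the block (limma adjusted p = 0.00927, 0.0163, 0.0426, 0.0347 and 0.021).

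Uncalled values near 0 turned sign: RAB14 at -0.0545 (quantile), -0.0367 (total reads) and -0.0383 (voom); RAB34 at -0.0641, -0.0355 and -0.0368 in the same order; and RABL6 at -0.0037 (total reads) and -0.0052 (voom). With 1 library left out, log2 ranges were -1.23 to 0.36 for RAB13, -0.192 to 0.213 for RAB14, -0.0472 to 0.0720 for RAB34, -0.398 to 0.29 for RAB5C, -0.153 to 0.308 for LRRK2, -0.22 to 0.0475 for PPM1H and -0.122 to 0.206 for RABL6. Depth limits the members below the filter, which had 3 to 295 reads over the 4 libraries.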

Other observations

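Among tested RAB genes, RAB13 differed most by replicate number: replicate 2 stood at 2.74 times replicate 1 in WT and 3.50 times in KO. Over all tested genes, 179 (1.27%) had replicate 2 at least 2-fold above replicate 1 in both groups and 81 (0.574%) the reverse. By the smaller of the WT and KO ratios RAB26 and RAB20 came next, at 1.51 and 1.57 times for RAB26 and 1.45 and 1.52 times for RAB20. These genes were chosen after their values were seen, and the replicate number has no stated meaning in the sources used here.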
